A study of Mus musculus with 14 samples.

Results

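The 9 genes described here encode the parts through which macrophages sense type I interferon and pass its signal to the genome: the receptor chains Ifnar1 and Ifnar2, the transcription factor Stat2, and the interferon regulatory factors Irf1, Irf2, Irf3, Irf5, Irf7 and Irf9. They were taken by name and matched by gene identifier, and all 9 of 9 were found among the 21761 genes of the deposited exon and intron count tables. Every one of the 9 passed the filter on low counts in both tables. The cells were primary bone marrow-derived macrophages from FVB/Hsd mice on the 7th day of differentiation in medium with L929-conditioned supernatant. Retroviruses made in Phoenix-ECO packaging cells delivered short hairpin RNAs, and infected cells were selected with puromycin, so that the control cells were also infected and selected. The control group held 2 libraries with a scrambled hairpin (scrambled 1 and scrambled 2), and the knockdown group held 2 libraries with hairpins against Wdr82, 1 with sh1137 and 1 with sh830. Wdr82 belongs to the complexes in which SET1 enzymes methylate histone H3 and to a PP1 phosphatase complex that acts at transcription termination. No cells of these libraries had received lipopolysaccharide, and what was sequenced was total RNA depleted of ribosomal RNA. The series holds 14 samples, of which the other 10 were not analysed here. The question put to the 4 libraries is how the RNA of these genes differed between Wdr82-depleted and control macrophages at rest.

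Type I interferons bind the receptor formed by IFNAR1 and IFNAR2, whose bound kinases TYK2 and JAK1 phosphorylate STAT2. Phosphorylated STAT2 joins IRF9 within the factor ISGF3, which binds interferon-stimulated response elements (ISREs) and switches on antiviral genes. Upstream, IRF3 and IRF7 are activated by nucleic acid sensors and induce the interferon genes themselves, while IRF5 acts below Toll-like receptors on inflammatory genes. IRF1 activates and IRF2 mostly restrains genes with related binding elements. Macrophages at rest keep a low tonic interferon signal, and Irf7 and Stat2 are known as interferon-stimulated genes in their own right.

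The 250 bases before the annotated start were read for all 9 genes from RefSeq (GRCm38.p6), which gave 11 windows because Irf1 and Irf9 have an alternative start. Windows of 4 genes are printed: that of Irf7, the gene with the largest difference in exon counts, and those of Stat2, Irf2 and Irf1, which hold a match to an interferon response motif, shown in capitals. The motifs searched on both strands were GAAANNGAAA for the ISRE and TTCNNNGAA for the gamma-activated sequence (GAS), the element of STAT dimers. Among all 32851 windows of this length in RefSeq, 2.98% held the ISRE letters and 7.02% the GAS letters.
Irf7: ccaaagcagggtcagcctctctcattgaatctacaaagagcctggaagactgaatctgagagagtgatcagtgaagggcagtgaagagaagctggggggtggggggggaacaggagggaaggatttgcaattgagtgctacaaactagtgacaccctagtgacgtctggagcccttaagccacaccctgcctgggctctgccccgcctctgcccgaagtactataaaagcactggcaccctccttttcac
Stat2: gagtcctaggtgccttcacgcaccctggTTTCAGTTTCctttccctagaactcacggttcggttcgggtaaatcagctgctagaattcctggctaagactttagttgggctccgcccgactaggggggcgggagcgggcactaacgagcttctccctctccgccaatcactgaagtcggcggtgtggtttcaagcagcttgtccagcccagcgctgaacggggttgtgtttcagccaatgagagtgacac
Irf2: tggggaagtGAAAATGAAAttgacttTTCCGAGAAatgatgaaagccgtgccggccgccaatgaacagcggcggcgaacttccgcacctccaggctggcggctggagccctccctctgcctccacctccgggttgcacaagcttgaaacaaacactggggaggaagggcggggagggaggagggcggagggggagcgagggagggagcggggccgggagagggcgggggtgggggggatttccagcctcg
Irf1: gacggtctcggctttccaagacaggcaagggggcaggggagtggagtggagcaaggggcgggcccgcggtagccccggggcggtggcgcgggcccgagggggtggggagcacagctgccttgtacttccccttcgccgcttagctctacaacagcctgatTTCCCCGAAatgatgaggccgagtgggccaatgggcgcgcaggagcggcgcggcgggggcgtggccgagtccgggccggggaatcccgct
The sequences run 5′ to 3′ on the strand of the gene and lie at chr7:141266425-141266674 (minus strand), chr10:128270248-128270497 (plus), chr8:46739495-46739744 (plus) and chr11:53769764-53770013 (plus) in that order, in GRCm38 coordinates. Stat2 has an ISRE match in reverse orientation at positions -222 to -213 from the start. Irf2 has an ISRE match at -241 to -232 and, not overlapping it, a GAS match. Irf1 has a GAS match at -90 to -82, and the window of Ifnar2, not printed, has another. The Irf7 window holds neither set of letters, which says only that they are not in these 250 bases. ISRE letters were thus present for 2 of the 9 genes and GAS letters for 3 of the 9.

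Total exon counts of genes ranged from 34787556 to 43372731 over the 4 libraries. Introns took 40.4% of exon plus intron counts in scrambled 1 and 44.2% with sh1137, but 14.6% in scrambled 2 and 15.2% with sh830. The main test therefore carried, beside the group, a term for this split of the libraries, here called the library term; the split is measured and is not a label. Wdr82 itself had 99.2 and 142 exon counts per 1000000 (CPM) in scrambled 1 and 2, and 24.8 and 40.3 CPM with sh1137 and sh830. It was lower in both hairpin libraries. Its log2 fold change was -1.91 ± 0.094 (SE), and edgeR gave an adjusted p of 0.0022 with the library term and of 0.44 with the group term alone. Macrophage markers were present in every library, and 10 of them summed to 8656 to 15267 CPM. Lyz2 (3604 to 9107 CPM) and Csf1r (2169 to 2663 CPM) were the largest parts of this sum. In edgeR 4 of the 10 fell, among them Fcgr1 (log2 fold change -1.51) and Cd68 (-0.94), where 7.79% of all genes tested fell. Stromal markers summed to 9.50 and 41.6 CPM in scrambled 1 and 2 and to 43.7 and 144 CPM with sh1137 and sh830. Of the 5 tested, 2 rose, Pdgfrb and Col1a1, where 6.06% of all genes tested rose. Pdgfrb had 8.54 and 9.48 CPM in scrambled 1 and 2 and 41.9 and 36.9 CPM with sh1137 and sh830, so it was most of the sh1137 sum. The groups overlapped for Col1a1 (0.097 and 9.15 against 0.77 and 52.7 CPM) and Col1a2 (0.82 and 21.2 against 0.74 and 49.7 CPM). Both were high only in scrambled 2 and sh830. The 6 markers of plasmacytoid dendritic cells, which are known for high Irf7, summed to 116 and 120 CPM in scrambled 1 and 2 and to 130 CPM with sh1137 and 160 CPM with sh830. Nearly all of this sum was Tcf4, with 114 to 159 CPM (log2 fold change 0.28 ± 0.10, edgeR adjusted p = 0.12). Ccr9 had 0.37 to 2.74 CPM (1.38 ± 0.39, edgeR adjusted p = 0.068) and Cox6a2 0.15 to 0.66 CPM (1.45 ± 0.64, edgeR adjusted p = 0.17). Siglech had at most 0.51 CPM in any library, Klk1 at most 0.047 CPM and Ly6d 0 counts. The median over the 4 that could be tested was 0.83. The summed CPM of 6 dendritic cell markers was 3.77 and 2.90 in the scrambled libraries and 7.31 and 5.81 in the knockdown libraries. Most of this difference was Xcr1, with 1.57 and 1.19 CPM against 4.41 and 3.37 CPM (log2 fold change 1.49 ± 0.29, edgeR adjusted p = 0.029). Zbtb46 (1.29 ± 0.49), Ccr7 (0.51 ± 0.55), Cd209a (0.14 ± 0.38) and Flt3 (-1.07 ± 1.05) did not pass. Clec9a had at most 0.11 CPM. The part of these marker changes in the values of the interferon genes was not tested. In bulk RNA, fewer cells of a type and less RNA per cell cannot be told apart.

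Of the 9 genes, Irf7 and Stat2 passed the test on the low side in exon counts with the library term, though the groups overlapped for Stat2. The receptor chains, Irf9 and the other IRFs did not pass. Thus 2 of 9 fell and 0 of 9 rose with the library term (edgeR's quasi-likelihood test, Benjamini-Hochberg adjusted p under 0.05). Over all 13884 genes tested, 7.79% fell and 6.06% rose under the same rule. Without adjustment (p under 0.05) 0 of the 9 were higher and 2 lower, beside 1951 higher and 2530 lower of all genes tested. DESeq2 with the library term gave 0 higher and 2 lower, beside 759 and 932 of all genes. The median log2 fold change was -0.16 over the 9 genes and -0.01 over all genes tested. When the group term stood alone, edgeR called 0 of the 9 genes and 0 of all genes. Unadjusted, with p under 0.05, 0 of the 9 were higher and 1 was lower there, beside 437 higher and 209 lower of all genes. DESeq2 with the group term alone called 1 of the 9 lower, Irf7, against 0.158% of all genes.

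**Figure D1:**
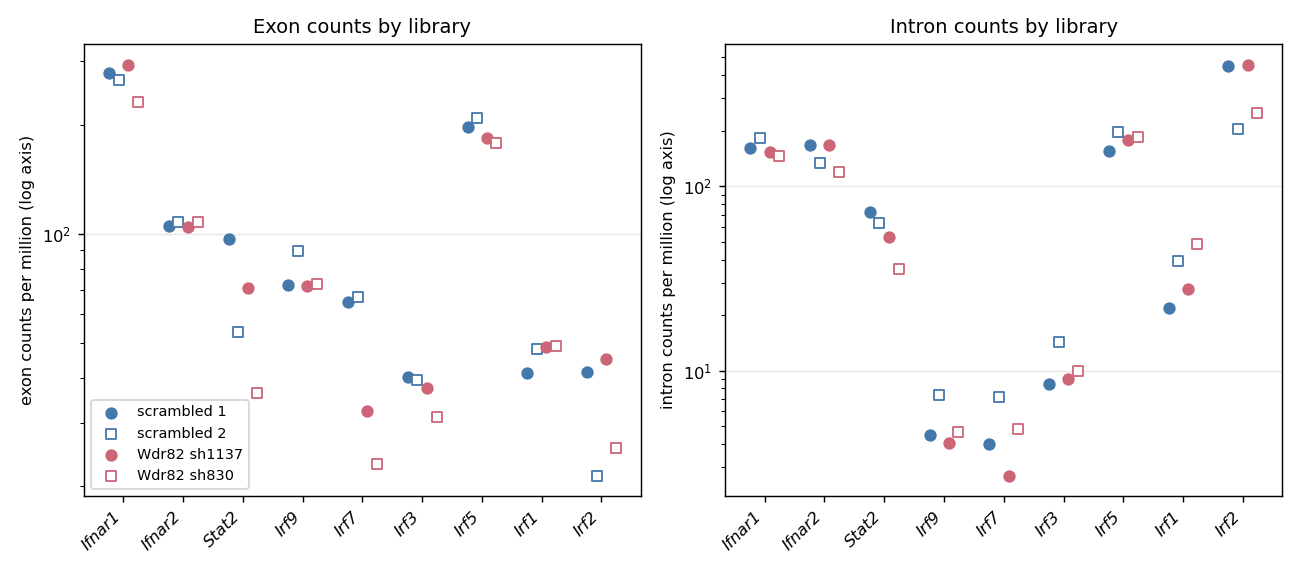
Exon CPM (left) and intron CPM (right), each scaled to counts of the same kind, on log axes, for each of the 9 genes in the 4 libraries; blue is scrambled and red is Wdr82 knockdown, and filled circles mark the 2 libraries with a high intron share. Both knockdown points of Irf7 exons, 32.3 and 23.1 CPM, sit below both scrambled points, 64.7 and 66.7 CPM, while Stat2 and Irf2 exons split by symbol shape.

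Irf7, the factor that amplifies interferon production (identifier 54123; mm9 chromosome 7, 148449088 to 148452300, minus strand), had exon levels of 64.7 CPM in scrambled 1 and 66.7 CPM in scrambled 2. With sh1137 the level was 32.3 CPM, and with sh830 it was 23.1 CPM. The scrambled libraries were close to each other and both knockdown libraries lay well below them, with means of 65.7 ± 1.37 and 27.7 ± 6.55 CPM (SD, n = 2 each). Irf7 fell by 1.26 ± 0.15 on the log2 scale, that is, 2.40-fold (edgeR adjusted p = 0.011, library term included). Taken hairpin by hairpin against the scrambled library of like intron share, the log2 differences were -1.0 for sh1137 and -1.53 for sh830. The estimate was -1.24 ± 0.26 when the group term stood alone, and the adjusted p was 0.45 in edgeR and 0.023 in DESeq2. Over all alternatives the adjusted p for Irf7 exons ran from 1.2e-08 to 0.84, with no change of direction. Leaving out each of the 4 libraries in turn, in edgeR with the group term alone, gave log2 fold changes between -1.52 and -1.03, and none of these 4 fits had an adjusted p under 0.05 for Irf7. With 2 libraries a group, no exact 2-sided permutation test of the groups can give a p under 0.33.

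The intron counts of Irf7 were few, with 95 in scrambled 1, 59 in scrambled 2, 65 with sh1137 and 44 with sh830. As CPM of intron counts they came to 4.01 and 7.22 in the scrambled libraries and to 2.70 and 4.84 in the knockdown libraries, so that the groups overlapped. Their log2 fold change was -0.57 ± 0.28 (adjusted p = 0.25 in edgeR). Counts per base in Irf7 introns stood at 5.13% and 3.17% of those in its exons in the scrambled libraries, and at 7.66% and 6.46% with sh1137 and sh830. Intron density relative to exon density was thus above both scrambled values in both knockdown libraries. The intron change exceeded the exon change by 0.65 ± 0.23 on the log2 scale, which did not pass the adjustment over all genes (edgeR adjusted p = 0.086). In this comparison of intron with exon change 0 of the 9 genes passed in either direction. Over all 11772 genes tested, 2.19% were higher and 1.46% lower. Without adjustment (p under 0.05) 2 of the 9 were higher and 0 lower, beside 999 higher and 797 lower of the 11772. Leaving out each library in turn with the group term alone moved this difference for Irf7 between 0.022 (without sh830) and 1.39 (without sh1137).

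Stat2, the STAT specific to type I and type III interferon signalling (identifier 20847; mm9 chromosome 10, 127707632 to 127729905, plus strand), had exon levels of 96.5 CPM in scrambled 1, 53.6 CPM in scrambled 2, 71.0 CPM with sh1137 and 36.2 CPM with sh830. Its groups overlapped, because the sh1137 library lay above scrambled 2. Within each pair of like intron share the knockdown library was lower, by a log2 difference of -0.44 for sh1137 and -0.56 for sh830. The scrambled libraries differed from each other by 0.85, more than either of these. With the library term Stat2 fell by 0.50 ± 0.088 on the log2 scale (edgeR adjusted p = 0.024, DESeq2 adjusted p = 0.015). With the group term alone the value was -0.48 ± 0.46 (adjusted p = 0.98 in edgeR), so the call rests on the library term. Over all alternatives the adjusted p for Stat2 exons ran from 0.010 to 1. It ranged from -1.06 without sh1137 to -0.02 without scrambled 1 (-0.81 without scrambled 2 and -0.09 without sh830), again with the group term alone.

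Stat2 introns separated the groups where its exons did not. Their levels were 72.8 CPM of intron counts in scrambled 1, 63.5 CPM in scrambled 2, 53.1 CPM with sh1137 and 35.7 CPM with sh830, and both knockdown libraries were below both scrambled libraries. The same held for Ifnar1, whose introns had this order while its exons overlapped. These were 2 of the 9 genes with that intron order, which 14.1% of all genes had. On the log2 scale Stat2 introns fell by 0.63 ± 0.12, with an edgeR adjusted p of 0.030 (0.92 when the group term stood alone). Leaving out each library in turn with the group term alone gave -0.50 without scrambled 1, -0.72 without scrambled 2, -0.92 without sh1137 and -0.37 without sh830, none past the threshold in edgeR. Over all alternatives the adjusted p for Stat2 introns ran from 0.00022 to 1. The difference between intron and exon change was -0.12 ± 0.13 (adjusted p = 0.73 in edgeR). Stat2 was the 1 gene of the 9 whose introns passed in either direction, where 3.93% of 12405 genes fell and 5.97% rose. Without adjustment (p under 0.05) 1 was higher and 1 lower, beside 1766 higher and 1676 lower of the 12405 genes. DESeq2 with the library term called 0 of the 9 higher in introns.

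Irf9, the DNA-binding part of ISGF3 (identifier 16391; mm9 chromosome 14, 56222822 to 56228867, plus strand), was at 72.2 CPM in scrambled 1, 89.4 CPM in scrambled 2, 71.5 CPM with sh1137 and 72.8 CPM with sh830. Scrambled 2 stood above the other libraries, which lay close together, and the groups overlapped. Its log2 fold change was -0.16 ± 0.10 (adjusted p = 0.33 in edgeR). Counts in Irf9 introns were 106 in scrambled 1, 60 in scrambled 2, 97 with sh1137 and 42 with sh830, too few for a firm value (log2 fold change -0.38 ± 0.28). Of the genes for the ISGF3 subunits, then, Stat2 passed and Irf9 did not, and that difference between them was not tested.

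**Figure D2:**
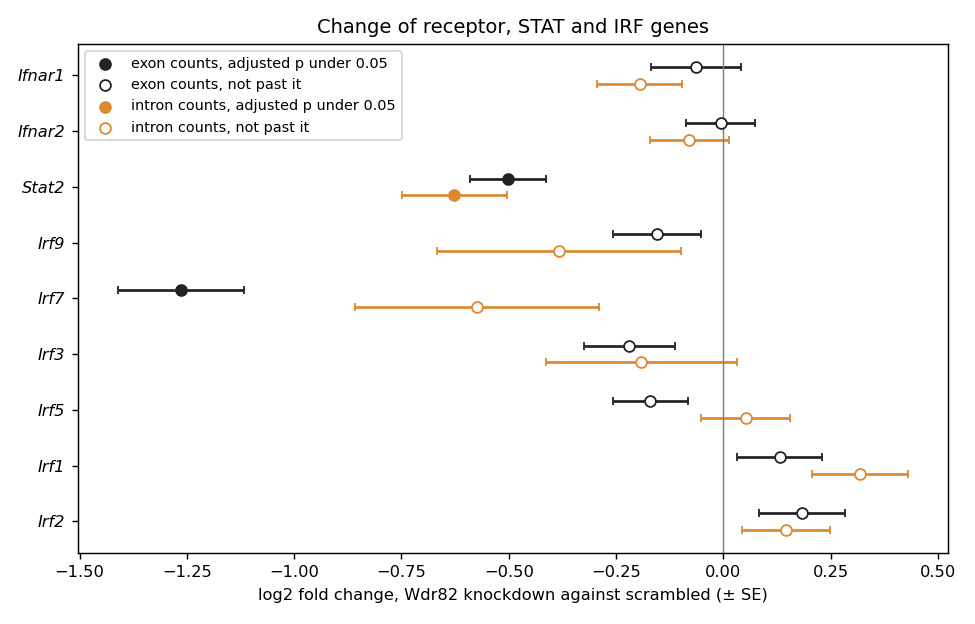
Log2 fold change of Wdr82 knockdown against scrambled libraries with the library term, for exon counts (black) and intron counts (orange) of each gene; bars are the SE, and filled points have an adjusted p under 0.05 in edgeR. Irf7 exons at -1.26 and Stat2 exons and introns at -0.50 and -0.63 are the filled points.

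Exon counts of the receptor chains did not pass the test. Ifnar1, the chain bound by TYK2 (identifier 15975; mm9 chromosome 16, 91485460 to 91510767, plus strand), had 279 and 267 CPM in scrambled 1 and 2, and 294 and 232 CPM with sh1137 and sh830. The knockdown libraries lay on either side of the scrambled ones, and the log2 fold change was -0.06 ± 0.11 (adjusted p = 0.71 in edgeR). Ifnar2, the high-affinity chain bound by JAK1 (identifier 15976; mm9 chromosome 16, 91373028 to 91405832, plus strand), had 105.0 and 108.1 CPM in the scrambled libraries and 104.4 and 107.8 CPM in the knockdown libraries. These 4 values were the closest together of the 9 genes, and the log2 fold change was -0.01 ± 0.081 (edgeR adjusted p = 0.96). Intron changes were -0.19 ± 0.099 for Ifnar1 and -0.08 ± 0.092 for Ifnar2, and neither passed in edgeR. The SEs of 0.11 and 0.081 are the precision for the receptor exons with the library term only. With the group term alone the SEs were 0.24 for Ifnar1 and 0.20 for Ifnar2.

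Irf3 and Irf5, which like Irf7 act below pattern-recognition receptors, had values on the low side that did not pass. Irf3, an inducer of interferon genes once activated (identifier 54131; mm9 chromosome 7, 52253030 to 52258218, plus strand), had 40.1 and 39.3 CPM in scrambled 1 and 2 and 37.5 and 31.1 CPM with sh1137 and sh830. Irf5, the Toll-like receptor factor (identifier 27056; mm9 chromosome 6, 29476733 to 29491869, plus strand), had 198 and 210 CPM against 184 and 178 CPM. For both genes the 2 knockdown libraries lay below the 2 scrambled libraries, by small amounts: the log2 fold changes were -0.22 ± 0.11 for Irf3 and -0.17 ± 0.088 for Irf5 (adjusted p = 0.21 and 0.23 in edgeR). With Irf7 this made 3 of 9 genes with non-overlapping groups on the low side, where 15.7% of all genes had that order. Irf5 introns did not follow: their log2 fold change was 0.05 ± 0.10, and the intron change exceeded the exon change by 0.22 ± 0.11 (adjusted p = 0.32 in edgeR). Irf5 shares 251 bases of exon with Tnpo3 on the opposite strand and Irf3 shares 8 with Bcl2l12, and the strand setting of the counting is not given in the sources used here, so reads of these partners cannot be told apart in the shared bases.

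Irf1 and Irf2, the activator and its antagonist, had values on the high side, also without passing. Irf1 (identifier 16362; mm9 chromosome 11, 53583516 to 53591876, plus strand) had 41.3 and 48.0 CPM in the scrambled libraries and 48.5 and 49.1 CPM with sh1137 and sh830. Both knockdown libraries were above both scrambled ones, though only just above scrambled 2, and the log2 fold change was 0.13 ± 0.099 (adjusted p = 0.40 in edgeR). It was the 1 gene of 9 with that order, which 15.7% of all genes had. Its introns went from 21.9 and 39.4 CPM of intron counts to 27.7 and 48.4 CPM, which gave 0.32 ± 0.11 on the log2 scale (edgeR adjusted p = 0.13). Irf1 introns were higher in the libraries of low intron share, scrambled 2 and sh830.

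Irf2 (identifier 16363; mm9 chromosome 8, 47825099 to 47932812, plus strand) followed the split of the libraries rather than the groups. It had 41.6 CPM in scrambled 1 and 45.0 CPM with sh1137, but 21.4 CPM in scrambled 2 and 25.5 CPM with sh830. The scrambled libraries differed by 0.96 on the log2 scale, while the hairpin differences within pairs were 0.11 and 0.25, and the fitted log2 fold change was 0.18 ± 0.10 (adjusted p = 0.25 in edgeR). Its introns showed the same order, at 450 CPM of intron counts in scrambled 1 and 457 CPM with sh1137, against 206 CPM in scrambled 2 and 249 CPM with sh830. Stat2 and Irf2 were thus the genes of the 9 with the largest gaps between the scrambled libraries in exon counts. Across 13737 genes, the difference between scrambled 1 and scrambled 2 correlated with that between sh1137 and sh830 at r = 0.775, a description over genes that share these libraries.

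Set per length of exon (the union of all annotated exons of a gene), the genes fell into a clear top and a crowded rest. Irf5 had the highest level, 75.9 CPM per kb on average (70.1 to 82.7 over the 4 libraries), and did not overlap the next gene. Ifnar1 followed with 37.9 (32.8 to 41.6) and Ifnar2 with 33.5 (32.9 to 34.1) CPM per kb, and these receptor chains did not differ beyond their spread. Irf7 came next on average with 24.6 CPM per kb, a mean that joins 34.1 and 35.1 in the scrambled libraries with 17.0 and 12.2 in the knockdown libraries. In control cells Irf7 RNA per length was thus close to Ifnar2 and below Ifnar1 (39.4 and 37.8 CPM per kb in scrambled 1 and 2), and with either hairpin it was below both receptor chains. Irf3 (17.0), Irf9 (16.5), Stat2 (14.6), Irf1 (13.9) and Irf2 (10.8 CPM per kb) each overlapped their neighbours in this order. The order depends on the annotation: for Irf9 the union is 4640 bases of exon, beside 1406 bases of intron.

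**Figure D3:**
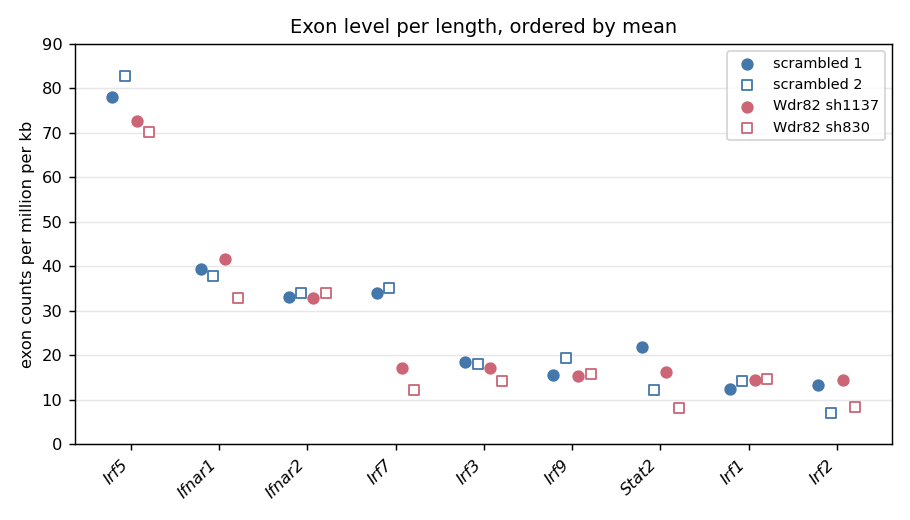
Exon CPM per kb of exon for each gene and library, ordered by the mean of the 4 libraries; blue is scrambled, red is Wdr82 knockdown, and filled circles mark the libraries of high intron share. Irf5 at 70.1 to 82.7 lies apart from the rest, and Irf7 spans 12.2 to 35.1.

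Besides genes, the deposited annotation lists regions outside genes that the authors named for a gene start or end. Their source field names a comparison of hairpin with vector libraries, so their direction was chosen by the authors and their values are a description. The regions that carry the name of one of the 9 genes or lie within 50 kb of one number 5. Of these, 3 had an adjusted p under 0.05 on the high side in edgeR, as did 54.6% of the 1070 regions tested. With the group term alone these 3 no longer passed in edgeR (adjusted p = 0.49 for the Ifnar2, 0.57 for the Ifngr2 and 0.84 for the Irf2 region), nor with the crossed split. DESeq2 with the group term alone still called the Ifnar2 and Ifngr2 regions (adjusted p = 0.011 and 0.016). Without sh1137 and without the library term their log2 fold changes were 1.24 and 1.31, against 1.83 and 2.31 with all 4 libraries. The region before Ifnar2 (mm9 chromosome 16, 91347500 to 91367499) ended 5529 bases before the gene and had 5.59 and 4.51 CPM in scrambled 1 and 2 and 26.2 and 12.02 CPM with sh1137 and sh830. It was 4.69-fold and 2.66-fold higher with sh1137 and sh830 than in the scrambled library of like intron share, beside Ifnar2 exons at 104.4 to 108.1 CPM in all 4 libraries. The region before Ifnar1 (91460000 to 91485499) overlaps the first 40 bases of that gene and had 19.9 and 8.36 CPM in the scrambled libraries and 34.9 and 9.33 CPM in the knockdown libraries. It was 1.75-fold and 1.12-fold higher by the same pairs, and it did not pass in edgeR (log2 fold change 0.50 ± 0.19, adjusted p = 0.12). Without sh1137, which also takes away the library term, its log2 fold change was -0.61.

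**Figure D4:**
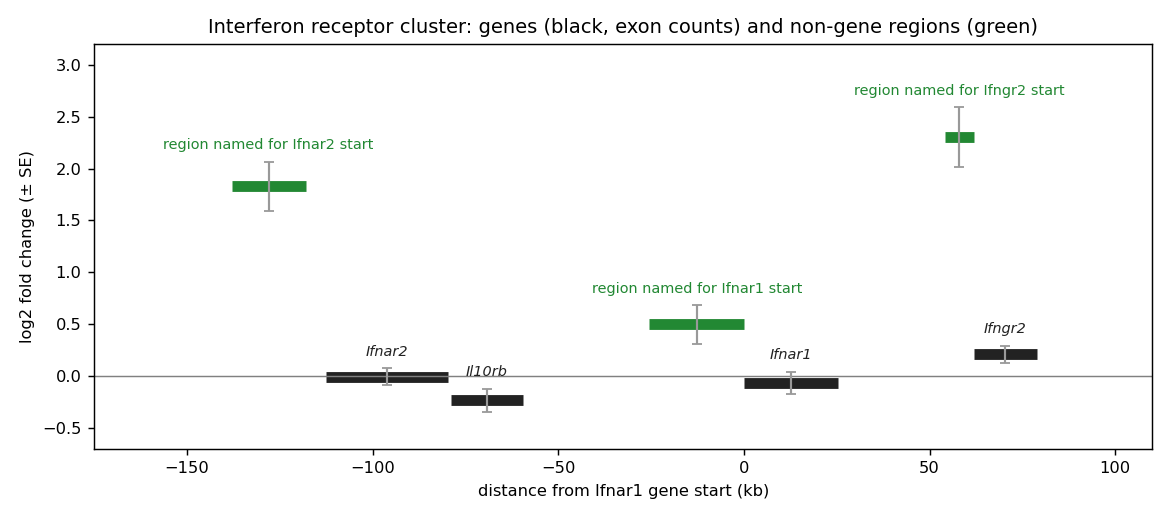
Log2 fold change with the library term (bars, SE) of genes (black, exon counts) and of non-gene regions (green) of the interferon receptor cluster, placed by distance in kb from the Ifnar1 gene start. The regions named for Ifnar2, Ifnar1 and Ifngr2 lie at 1.83, 0.50 and 2.31, and the genes Ifnar2, Il10rb, Ifnar1 and Ifngr2 between -0.23 and 0.21.

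The third region of this cluster lies before Ifngr2, the signalling chain of the interferon gamma receptor, and overlaps the first 161 bases of that gene. The region had 3.10 and 1.71 CPM in the scrambled libraries and 20.8 and 6.00 CPM with sh1137 and sh830. The genes next to Ifnar1 and Ifnar2 in the cluster, Il10rb and Ifngr2, had log2 fold changes of -0.23 ± 0.11 and 0.21 ± 0.084 over their exons, and neither passed in edgeR (adjusted p = 0.20 and 0.15). Elsewhere, the region named for the end of Irf2 (mm9 chromosome 8, 47933000 to 47980499) began 188 bases after the gene. It had 17.1 and 7.49 CPM in scrambled 1 and 2 and 62.6 and 13.1 CPM with sh1137 and sh830, that is, 3.65-fold and 1.75-fold higher by pair. Its log2 fold change was 1.37 with the library term, and 0.08 without sh1137, which also takes away the library term. The region before Irf1 (mm9 chromosome 11, 53572500 to 53577499), 6017 bases from the gene, held few counts, 51 and 78 in the scrambled libraries against 149 and 105.

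The other genes of the pathway were counted in lists set by role. Of 20 interferon ligand genes, 15 had 0 counts in all 4 libraries, and all 20 were under 1 CPM in every library. Ifnb1, the interferon beta gene, had 4 counts in scrambled 1, 2 in scrambled 2, 0 with sh1137 and 2 with sh830, so no difference was detectable at this depth. Among 6 tested receptor chains and kinases besides Ifnar1 and Ifnar2, 1 rose and 0 fell, where 6.06% of all genes tested rose and 7.79% fell. The riser was Ifngr1, the binding chain of the interferon gamma receptor. It had 109 and 140 CPM in the scrambled libraries and 139 and 193 CPM in the knockdown libraries (0.41 ± 0.086 on the log2 scale, edgeR adjusted p = 0.036). Jak1, the most abundant of those not past the threshold, had 306 to 340 CPM.

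Neither the other IRFs and IRF2-binding proteins nor the negative regulators had a gene past the threshold in edgeR. Of 6 and 11 genes tested, 0 and 1 were higher and 1 and 3 were lower when p was not adjusted (under 0.05). By that rule 1951 of all 13884 genes were higher and 2530 lower. DESeq2 with the library term called 0 of the former and 1 of the latter, lower. In edgeR without the low-count filter, and in edgeR on genes without regions, 1 negative regulator was called higher and 1 lower. Usp18, which restrains IFNAR2 signalling, had 34.2 and 37.2 CPM in the scrambled libraries and 26.5 and 17.9 CPM in the knockdown libraries (log2 fold change -0.71 ± 0.18, adjusted p = 0.054 in edgeR). Irf8, the IRF of the macrophage lineage, had 155 and 163 CPM against 135 and 177 CPM, with the groups overlapping. Usp18 and Irf8 were named after their values were seen. Among 24 sensors, adaptors and kinases that feed the IRFs, 1 rose and 2 fell in edgeR. By the same adjusted rule 6.06% of all genes tested rose and 7.79% fell. Unc93b1, the chaperone of endosomal Toll-like receptors, rose by 0.41 ± 0.094 on the log2 scale. Cgas, the cytosolic DNA sensor, fell by 0.60 ± 0.11, and Tbkbp1, which binds the kinase TBK1, fell by 0.48 ± 0.12 (adjusted p = 0.043, 0.028 and 0.047 for the 3 genes in edgeR).

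**Figure D5:**
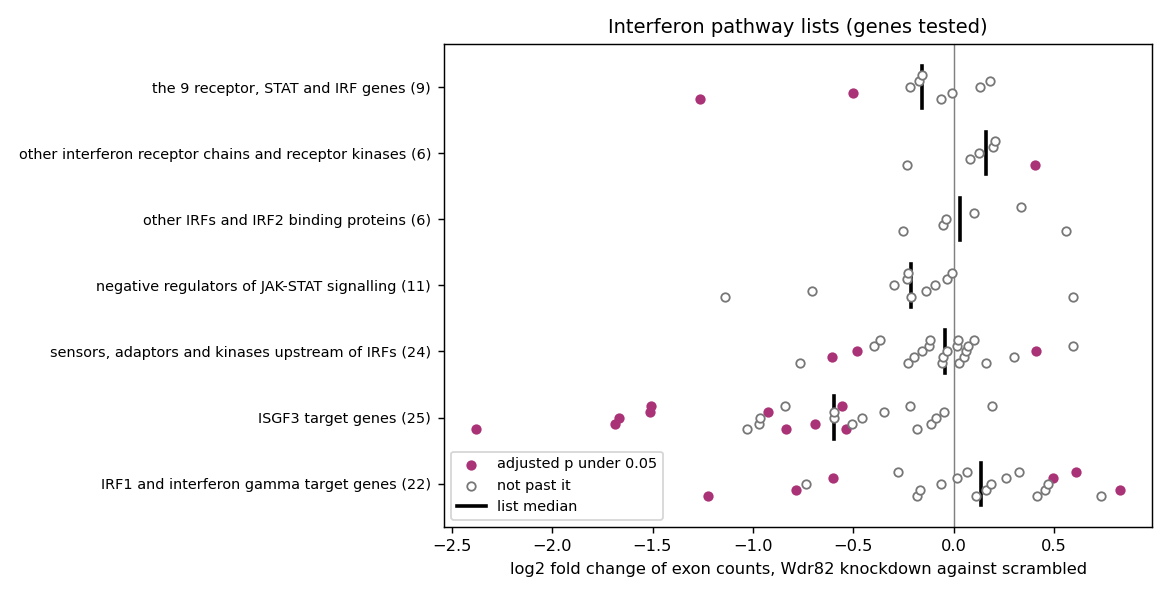
Log2 fold change of exon counts with the library term for each tested gene of the 9 and of the pathway lists, with the number tested in brackets; filled points have an adjusted p under 0.05 in edgeR, and the black line is the list median. The median is -0.60 over the ISGF3 target genes and lies between -0.21 and 0.16 in the other lists shown.

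Target genes were counted by branch. Of 25 ISGF3 target genes, 10 fell and 0 rose, where 7.79% of all genes tested fell and 6.06% rose. The median log2 fold change of the list was -0.60, beside -0.01 over all genes tested. Without adjustment (p under 0.05) 0 genes of this list were higher and 19 lower, beside 1951 higher and 2530 lower of all 13884 genes. DESeq2 with the library term called 16 lower, and edgeR with the group term alone called 0. Both knockdown libraries were below both scrambled libraries in 15 of the 25, and above them in 0, beside 15.7% of all genes in each direction. Of the 22 tested IRF1 and interferon gamma targets, 3 rose and 3 fell, beside the 6.06% and 7.79% of all genes. Their median was 0.14. Il15, a cytokine for natural killer cells, rose by 0.61 ± 0.11 on the log2 scale, and Tap2, a peptide transporter for class I presentation, rose by 0.50 ± 0.090. Cxcl10, a chemokine that ISGF3 also drives, fell by 1.22 ± 0.27, and Cybb, the NADPH oxidase subunit, fell by 0.78 ± 0.13 (adjusted p = 0.026, 0.026, 0.039 and 0.021 for the 4 genes in edgeR). The others past the threshold were Gbp7, higher by 0.83 ± 0.19, and Psmb10, lower by 0.60 ± 0.096 (edgeR adjusted p = 0.040 and 0.020). The difference between the lists was not tested.

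Genes whose exon pattern over the 4 libraries was nearest to that of Irf7 and Stat2 were found among 8950 genes, by the Euclidean distance of log2 CPM centred on each gene's own mean. Nearest to Irf7 were Ccl7 (distance 0.15), Acap1 (0.18) and Slc7a5 (0.23). Ccl7, a monocyte chemokine, had 246 and 227 CPM in the scrambled libraries and 121 and 78.8 CPM with sh1137 and sh830, a pattern of 2 level controls and 2 lower knockdowns with sh830 the lowest. Nearest to Stat2 were Slc12a7 (0.041), Trim25 (0.047) and Ubap2 (0.093). Trim25, a ubiquitin ligase of the RIG-I pathway, had 279 and 152 CPM in the scrambled libraries and 209 and 103 CPM in the knockdown libraries, the same alternation as in Stat2. Over 4 libraries such likeness is a description of those libraries.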

How the data were processed

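Ribosomal RNA-depleted total RNA of 4 untreated macrophage libraries, prepared with a stranded TruSeq kit per the labels' protocols, was analysed. Exon and intron read counts of each gene were used as deposited by the authors; that they are raw was judged from their whole numbers and unequal totals. Per the submitters' processing notes, the tools included SICER, TopHat 1.3.1, Cuffdiff 2.1.1 and Cufflinks 2.1.1, with the mm9 build; the counting tool and its strand setting are not given in the sources used here. Symbols were matched by identifier for 21615 of 21761 genes.

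Exon counts of genes and regions, and intron counts of genes, were each fitted in edgeR 4.0.16 (R 4.3.3) with filterByExpr, TMM factors from genes, and group and library terms. This leaves 1 residual degree of freedom (2 with the group term alone). Intron and exon changes of a gene were compared by a term for group by interval type. P-values were adjusted by Benjamini-Hochberg over all features, with a threshold of 0.05. CPM are counts per 1000000 TMM-scaled counts. With the library term, p-values rest on how far the differences within the 2 pairs of like intron share disagree, moderated over genes. With the group term alone they rest on the spread between libraries of a group, also moderated. Nothing in the labels says that libraries of a group came from separate animals, so neither is known to measure a spread between animals. The steps were tested on simulated data.

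Alternatives were the group term alone, the crossed split, DESeq2 1.42.0, RLE factors, no filter, genes without regions, and leaving out each library with the group term alone. The 9 genes, the lists and the library term were chosen with earlier results of these data known. Besides the 9 genes and Wdr82, the naming rule took, per list, up to 3 genes with the smallest p in each direction past the threshold and the most abundant gene not past it, the 3 genes nearest in pattern, among those of at least 10 CPM, to each of the 9 that passed, and overlapping genes. Not every gene so taken is printed. Ly6g and Ighm, named as markers, were not matched. A further pathway list is not reported here.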

Additional observations from a re-analysis of the deposited data

How the results depend on the processing

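No paired analysis was possible because the knockdown libraries carry hairpin names and no replicate number; the library term sets the libraries in pairs by their measured intron share instead. Calls rested on the library term. Exon values were -0.48 (group term alone), -0.50 (crossed split) and -0.48 (DESeq2, group term alone) for Stat2, and -1.24 and -1.26 for Irf7 in the first 2 of these, none past the threshold. Over the group term alone, the crossed split and DESeq2 with the group term alone, in that order, the lower genes among the 9 numbered 0, 0 and 1 in exons and 0, 0 and 0 in introns. All genes higher in exons numbered 0, 23 and 152, and lower 0, 1 and 22. In introns 0, 60 and 158 were higher and 0, 2 and 8 lower. In intron against exon change, 0 were higher and 0 lower in the first 2 settings. Without the filter, 1233 genes were higher and 1133 lower in introns. DESeq2 with the library term called 311 intron genes lower, and RLE factors 915. The Irf3 intron change minus its exon change was 0.03 with the library term and turned to -0.000402 with the group term alone and -0.00337 with the crossed split. ISGF3 targets called lower numbered 10 with the library term, 6 with RLE factors, 16 in DESeq2, 3 in DESeq2 with the group term alone, and 0 with the group term alone and the crossed split in edgeR. For Irf7 and Stat2 the calls held in DESeq2 with the library term, with RLE factors, without the filter and without regions. The cause of these shifts was not tested.

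Leaving out each library in turn (group term alone) gave exon values of -1.52 to -1.03 for Irf7 and -1.06 to -0.022 for Stat2, with 0 of the 9 called in exons or introns. All genes called higher ran from 13 to 190 and lower from 1 to 53 in exons, higher from 5 to 211 and lower from 0 to 42 in introns, and higher from 0 to 2 with 0 lower in intron against exon change. Values that changed sign in exons ran from -0.24 to 0.10 for Ifnar1, -0.056 to 0.043 for Ifnar2, -0.0061 to 0.27 for Irf1, -0.31 to 0.69 for Irf2, -0.34 to 0.028 for Irf9 and -0.61 to 1.38 for the Ifnar1 region. In introns they ran from -0.32 to 0.14 for Ifnar2, -0.14 to 0.78 for Irf1, -0.39 to 0.79 for Irf2, -0.58 to 0.14 for Irf3 and -0.11 to 0.20 for Irf5. In intron against exon change they ran from -0.29 to 0.026 for Ifnar1, -0.32 to 0.17 for Ifnar2, -0.44 to 0.14 for Stat2, -0.22 to 0.60 for Irf1, -0.16 to 0.077 for Irf2 and -0.37 to 0.34 for Irf3. Depth limited the introns of Irf7 and Irf9, with 42 to 106 counts a library.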
